A study of Mus musculus with 8 samples.

Results

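Interleukin-15 (Il15) and the alpha chain of its receptor (Il15ra) were followed in dendritic cells grown from mouse bone marrow, which take up microbes and show their antigens to T cells, after overnight culture with heat-inactivated bacteria of the genus Prevotella. These 2 genes were chosen by name from the 55376 genes of the deposited count table, and each had 1 row. The cells were given P. melaninogenica (PM, 3 samples) or P. heparinolytica (PH, 3 samples). All samples received a bacterium and none was left untreated, so every difference below is PM against PH and says nothing of either bacterium against rest. The strain, sex and age of the mice and the way the dendritic cells were grown do not appear in the labels used here, nor does a statement of whether a sample id (1, 3 or 4, carried by a PM and a PH sample each) marks an animal or a culture. The p-values therefore measure the spread between these samples, which may be technical in part.

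IL-15 is a cytokine of the family that signals through the common gamma chain, and it keeps natural killer cells and memory CD8 T cells alive and dividing. Dendritic cells and macrophages make little free IL-15. They bind it to IL-15 receptor alpha inside the cell, carry the complex to the surface and present it to a neighbouring lymphocyte that has the beta chain (Il2rb) and the gamma chain (Il2rg). Bacterial products and type I interferon are known to raise the transcription of both genes in dendritic cells, in part through interferon regulatory factors (IRF) and STAT proteins.

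The sequence before the first exon of Il15ra is shown because the factors described further below are known to bind such sites. Il15ra lies on chromosome 2 (11705290 to 11734317, plus strand, GRCm38) and Il15 on chromosome 8 (82331632 to 82403222, minus strand). GENCODE mouse release 21 lists each as protein-coding, Il15ra with 18 transcripts and Il15 with 10. Of the 2 genes, Il15ra was matched in RefSeq promoter windows (GRCm38.p6, 250 bases before to 50 after a start), with 2 windows whose starts are at 11705293 and 11705712. The first stretch below is chr2:11705043-11705289, upstream of every exon of the deposited table. The second is chr2:11705727-11705756, which lies downstream of the second start. Both are written 5′ to 3′ on the plus strand, and capitals mark the core of an IRF site, AANNGAAA, read on either strand.
Il15ra upstream of start 1: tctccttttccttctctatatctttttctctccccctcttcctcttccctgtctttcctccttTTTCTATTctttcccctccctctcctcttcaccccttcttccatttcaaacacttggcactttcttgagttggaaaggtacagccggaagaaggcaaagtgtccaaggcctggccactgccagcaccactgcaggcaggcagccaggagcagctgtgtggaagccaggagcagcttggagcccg
Il15ra after start 2: ggctaaagcaaAAGCGAAAgcgaatactcc
The core stands on the minus strand in the first stretch and on the plus strand in the second. It was found in 23.9% of the 32841 RefSeq windows, so its presence does not set Il15ra apart. The full interferon-stimulated response element, given here by its name alone, which contains a core, was in neither window (3.44% of all windows hold it), and each window had a stretch with 1 mismatch to its 8 fixed letters, as 35.4% of windows do. The gamma-activated site TTCNNNGAA (8.30% of windows) and the kappaB consensus by its name (4.51%) were in neither window. A match here is a description of letters, and no match says only that these letters are not in this window.

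Il15ra was lower with PM. Its level, in TMM-scaled counts relative to library size (CPM), was 37.2, 45.5 and 45.4 in PM replicates 1, 3 and 4, against 56.7, 60.4 and 58.9 in PH replicates 1, 3 and 4. All 3 PM samples were thus below all 3 PH samples, with PM replicate 1 the lowest of the 6. The mean was 42.7 ± 4.76 CPM with PM and 58.7 ± 1.91 CPM with PH (SD, n = 3 each), a log2 fold change of -0.45 ± 0.08 (SE, 95% interval -0.65 to -0.26). This passed the threshold of 0.05 over the 14382 genes tested (adjusted p = 0.0288, edgeR quasi-likelihood test with Benjamini-Hochberg adjustment). By this rule 2.34% of the tested genes passed, 1.64% lower and 0.702% higher with PM, so Il15ra was among a small share of genes, at rank 256 by p. Of the tested genes, 4.80% had a lower log2 fold change.

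The difference of Il15ra had the same direction in each pair of samples with 1 id. On the log2 CPM scale the values were -0.61 (id 1), -0.41 (id 3) and -0.37 (id 4). With the sample id as a block edgeR gave -0.46 ± 0.06 (SE) at an adjusted p of 4.1e-07. The call without the block depended on which samples were present. Leaving out PM replicate 1 kept it (adjusted p = 0.0124), while leaving out PM replicate 3 or 4 or PH replicate 1, 3 or 4 gave adjusted p 0.0529 to 0.140, and total-count scaling gave 0.0624.

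Il15, the cytokine gene itself, had a difference of similar size and a wider spread. Its level was 18.1, 24.1 and 21.8 CPM in PM replicates 1, 3 and 4, against 25.0, 31.7 and 27.0 CPM in PH replicates 1, 3 and 4. The groups did not overlap here either, but the highest PM sample (id 3) and the lowest PH sample (id 1) lay close together. The mean was 21.3 ± 3.04 CPM with PM and 27.9 ± 3.42 CPM with PH (SD, n = 3 each). The log2 fold change was -0.37 ± 0.12 (SE, 95% interval -0.65 to -0.10) and did not pass the adjustment over all genes (adjusted p = 0.211 by edgeR, at rank 973 of the p-values). Groups without overlap were common in this table, since all 3 PM samples were below all 3 PH samples in 9.28% of tested genes.

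In both treatments id 3 was the highest and id 1 the lowest of the Il15 levels, so the spread between ids was of a size with the difference between the bacteria. Within ids the log2 CPM difference was -0.47 (id 1), -0.39 (id 3) and -0.31 (id 4). With the sample id as a block Il15 passed, at -0.38 ± 0.07 (SE, adjusted p = 8.6e-05 by edgeR). In that fit 15.3% of all tested genes passed, and 8.27% of all tested genes passed as lower with PM. Il15 also passed with the block in DESeq2 (adjusted p = 0.00231) and with no low-count filter (0.00961). PH replicate 3, the sample with the highest Il15 level, was also the shallowest library and had 4029 CPM of the predicted gene Gm42418, against 878 to 1496 CPM in the other 5 samples. The part of this in the Il15 difference was not tested beyond leaving the sample out, which gave -0.29 (adjusted p = 0.401). Without PH replicate 3 and PM replicate 1, whose columns each match 2 sequencing runs, the log2 fold change was -0.19 (adjusted p = 0.298).

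**Figure D1:**
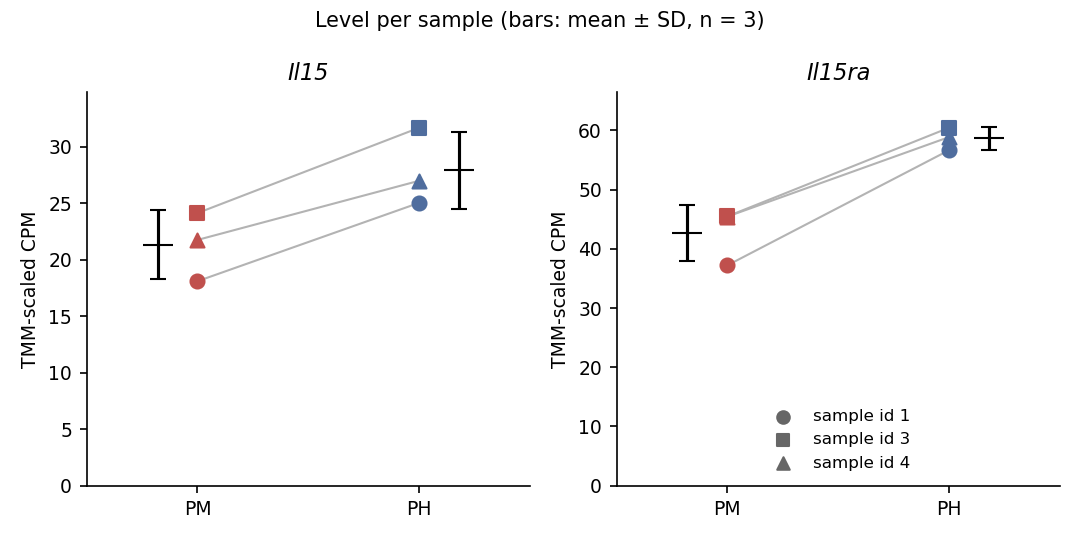
Level of Il15 (left) and Il15ra (right) in TMM-scaled CPM (y axis) in the 3 PM and 3 PH samples (x axis); grey lines join samples of 1 id, and black bars are the mean ± SD. For both genes each line is higher at PH than at PM, with PM means of 21.3 and 42.7 CPM and PH means of 27.9 and 58.7 CPM.

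Per length, the receptor chain was the more abundant transcript in all 6 samples. In CPM divided by exon length in kilobases (RPKM), Il15ra was at 18.6 ± 2.08 with PM and 25.6 ± 0.832 with PH, and Il15 at 10.1 ± 1.45 with PM and 13.3 ± 1.63 with PH (SD, n = 3 each). Among the tested genes these mean levels put Il15ra above 79.1% and Il15 above 65.8%. The ratio of Il15ra to Il15 per length, which no scaling between libraries touches, was 1.88, 1.73 and 1.92 in PM replicates 1, 3 and 4, against 2.07, 1.75 and 2.0 in PH replicates 1, 3 and 4. The treatments overlapped in this ratio. The log2 ratio was 0.88 ± 0.08 with PM and 0.95 ± 0.13 with PH (SD, n = 3 each), a difference of -0.07 that was not larger than the spread (two-sided exact permutation test, p = 0.4, where 3 against 3 allows no p below 0.1). The ratio was lower with PM in each id, by -0.14, -0.02 and -0.06 for ids 1, 3 and 4 on the log2 scale. Unequal changes of the 2 genes were thus not detectable with these samples.

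Il15 was the only gamma-chain cytokine gene at more than 3 CPM. Of the 6 cytokine genes of this family, 3 passed the low-count filter and 0 passed the test by edgeR or by DESeq2, with 1, Il15, past the threshold with the block. At an unadjusted p under 0.05 in edgeR there were 2 of the 3, Il15 and Il4, a cytokine of type 2 responses. The share of all tested genes at that unadjusted cutoff was not computed. Counts at it, here and below, are therefore a description only and are not set against a background. Il4 was at 0.453 ± 0.0989 CPM with PM and 0.251 ± 0.00675 CPM with PH (SD, n = 3 each, adjusted p = 0.333 by edgeR). Il7, a survival factor of lymphocytes, was at 2.11 ± 0.396 CPM with PM and 2.05 ± 0.213 CPM with PH. Il2, a T cell growth factor, had 4, 3 and 1 counts in PM replicates 1, 3 and 4 and 0 in each PH sample, where a count of 0 allows up to 0.258 CPM in the shallowest library. Il21 had 0 counts in all 6 samples, and Il9 had 0 to 2 counts in PM samples and 1 to 5 in PH samples. These counts are too low for a comparison.

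Among the 8 tested receptor subunits of the family, 1 fell (Il15ra) and 1 rose (Il7r), against 1.64% and 0.702% of all genes, and the median log2 fold change was -0.13, beside 0.01 over all tested genes. Il7r, the alpha chain for IL-7, was at 316, 338 and 342 CPM in PM replicates 1, 3 and 4, against 267, 241 and 251 CPM in PH replicates 1, 3 and 4. Every PM sample was above every PH sample, and edgeR gave a log2 fold change of 0.39 ± 0.07 (SE) with an adjusted p of 0.0206. This call was lost without PM replicate 3 or 4 or PH replicate 3 or 4. Il2ra, the alpha chain for IL-2 and the closest relative of Il15ra, was at 181, 257 and 231 CPM in PM replicates 1, 3 and 4, against 268, 352 and 297 CPM in PH replicates 1, 3 and 4. The groups did not overlap, and the log2 fold change of -0.45 ± 0.14 (SE) equalled that of Il15ra to 2 decimals but did not pass (adjusted p = 0.175, or 6.6e-09 with the block).

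The chains that receive IL-15 on the partner cell gave differences within their spread. Il2rb, the beta chain, was at 12.7 ± 4.06 CPM with PM and 14.9 ± 4.40 CPM with PH, with overlapping groups (log2 fold change -0.20 ± 0.27 SE, adjusted p = 0.817, or 0.0904 with the block). Il2rg, the gamma chain, was at 87.9 ± 6.46 CPM with PM and 86.4 ± 4.35 CPM with PH (0.02 ± 0.07 SE, adjusted p = 0.930). Exons of Il2rg overlap another gene, Gm20489, over 43.6% of their length, and the strand setting of the counting is not given, so its value is uncertain. Il4ra (-0.15 ± 0.07 SE), Il21r (-0.10 ± 0.07) and Il9r (0.18 ± 0.29), the receptor chains for IL-4, IL-21 and IL-9, did not pass. With the block 3 of the 8 subunits were lower, Il15ra, Il2ra and Il4ra, against 8.27% of all genes, and 1 higher, Il7r, against 7% of all genes.

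**Figure D2:**
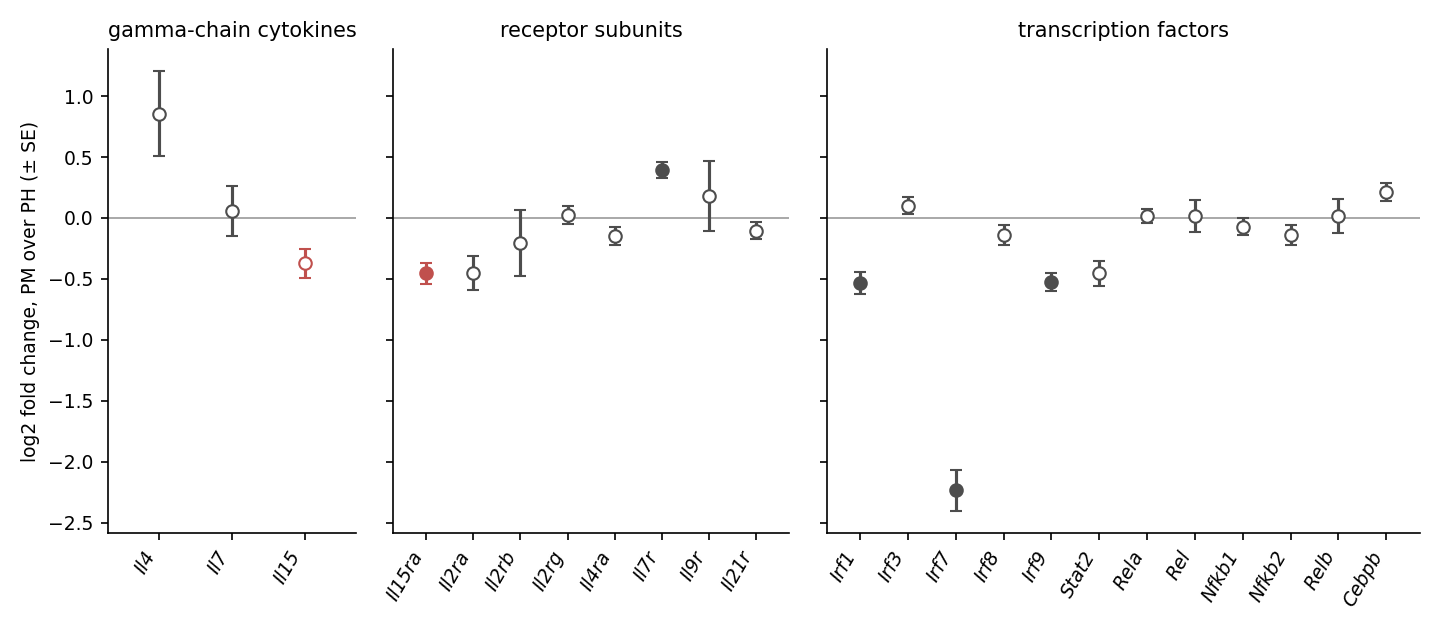
Log2 fold change, PM over PH, ± SE (y axis) of the tested gamma-chain cytokine genes, receptor subunits and 12 of the transcription factors (x axis); filled points passed an adjusted p of 0.05, open points did not, and Il15 and Il15ra are red. Il15ra (-0.45), Irf1 (-0.54), Irf9 (-0.53) and Irf7 (-2.23) are filled below 0, and Il7r (0.39) is the filled point above 0.

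Of 18 genes that relay the IL-15 signal inside a responding cell, 1 fell and 0 rose, against 2.34% of all genes in either direction, with a median log2 fold change of -0.03. That gene was Pik3cd, the delta catalytic subunit of PI3 kinase, at 107 ± 6.10 CPM with PM and 135 ± 1.98 CPM with PH (SD, n = 3 each). Its log2 fold change by edgeR was -0.34 ± 0.06 (SE) at an adjusted p of 0.0243, and the call was lost without any 1 sample other than PM replicate 1. Jak3, the kinase bound to the gamma chain, was at 77.5 ± 4.19 CPM with PM and 86.9 ± 11.2 CPM with PH (-0.16 ± 0.09 SE, adjusted p = 0.528, or 0.0398 with the block). The signal transducers Stat5a (-0.16 ± 0.11) and Stat5b (-0.03 ± 0.10) and the survival genes Bcl2 (0.06 ± 0.09) and Mcl1 (0.10 ± 0.08) did not pass. With the block 5 of the 18 were lower, against 8.27% of all genes, and 0 higher, adding Socs1 and Socs3, feedback inhibitors of cytokine receptors, Stat5a and Jak3 to Pik3cd.

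Several factors known to act on Il15 transcription were lower with PM. Of 13 tested, 4 fell and 0 rose, against 1.64% of all genes lower, with a median log2 fold change of -0.14. Irf1, an interferon regulatory factor that binds the Il15 promoter, was at 146, 175 and 154 CPM in PM replicates 1, 3 and 4, against 225, 253 and 211 CPM in PH replicates 1, 3 and 4. The groups were apart, and edgeR gave -0.54 ± 0.09 (SE) on the log2 scale at an adjusted p of 0.0190, a call lost without PM replicate 4 (0.106) or PH replicate 3 (0.0671). Irf9, a member of the complex that binds interferon-stimulated response elements, changed by -0.53 ± 0.07 (adjusted p = 0.00708) and Irf7, an interferon-inducible member of the family, by -2.23 ± 0.17 (adjusted p = 5.6e-04).

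The NF-kB subunit genes of the same list had small differences. The log2 fold change was 0.02 ± 0.06 for Rela, 0.02 ± 0.13 for Rel, -0.07 ± 0.07 for Nfkb1, -0.14 ± 0.08 for Nfkb2 and 0.02 ± 0.14 for Relb (SE), and none of these 5 passed in edgeR without the block, where 0 of the 5 had an unadjusted p under 0.05 as well. With the block Nfkb2 passed, lower with PM in all 3 ids (-0.14, adjusted p = 0.0385), and the other 4 did not. Stat2, which is also part of the complex with Irf9, did not pass (-0.45 ± 0.10 SE, adjusted p = 0.0646, or 8.8e-09 with the block). With the block 7 of the 13 members of the list were lower, against 8.27% of all genes, and 1, Cebpb, an inflammatory transcription factor, was higher. Exons of Irf1 overlap Gm17334 over 18.5% of their length, and those of Nfkb2 overlap 4833438C02Rik and Psd over 19.7%. The values of Irf1 and Nfkb2 may therefore hold reads of those genes.

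Upstream of these factors, 14 of 15 genes of the route from bacterial sensing to interferon signalling were tested, of which 2 fell, Irf9 among them, against 1.64% of all genes lower, and 0 rose. The median log2 fold change was -0.04. With the block 5 were lower, against 8.27% of all genes, and 1, Tlr2, was higher. Tlr2, a receptor for bacterial lipoproteins, was at 321 ± 27.5 CPM with PM and 261 ± 28.1 CPM with PH (0.29 ± 0.10 SE, adjusted p = 0.210, or 1.1e-05 with the block). Tlr4, the receptor for lipopolysaccharide, differed by 0.14 ± 0.09, and the kinase Ikbke by -0.30 ± 0.08 (adjusted p = 0.0971, or 1.9e-05 with the block). The interferon receptor chains Ifnar1 (-0.04 ± 0.08) and Ifnar2 (-0.04 ± 0.10) did not pass. Ifnb1, the gene of interferon-beta, had 0, 2 and 3 counts in PM replicates 1, 3 and 4 and 4, 1 and 0 counts in PH replicates 1, 3 and 4, which is at the limit of this depth and allows no comparison.

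Genes for the shedding and transport of the IL-15 complex differed little. Of 10 tested, 0 passed in edgeR at an adjusted p of 0.05, against 2.34% of all genes, with a median log2 fold change of -0.09. Adam17, the protease that cuts IL-15 receptor alpha from the surface, was at 180 ± 21.2 CPM with PM and 189 ± 21.3 CPM with PH (SD, n = 3 each, -0.08 ± 0.10 SE, adjusted p = 0.821). With the block, by which 15.3% of all genes passed, 1 gene was higher, Furin, a proprotein convertase (0.20), and 2 were lower, Timp3, an inhibitor of Adam17 (-0.25), and Sec22b, a protein of vesicle transport (-0.15). At an unadjusted p under 0.05 without the block there were 2 genes of the 10 (Timp3 and Furin), and DESeq2 without the block passed 0.

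Il15 and Il15ra stand among other signals by which dendritic cells act on natural killer and CD8 T cells, and several of these were lower with PM. Of 14 listed genes 12 were tested, 5 fell, against 1.64% of all genes lower, and 0 rose, and the median log2 fold change was -0.65. With the block 10 of the 12 were lower, Il15 among them, against 8.27% of all genes, and 0 were higher. Cxcl9 (-2.36 ± 0.21 SE) and Cxcl10 (-1.94 ± 0.13), chemokines that attract these cells, had the largest differences. Il23a (-1.51 ± 0.18), a subunit of interleukin-23, Tnfsf9 (-0.79 ± 0.09), the ligand of 4-1BB, and Ebi3 (-0.67 ± 0.08), a subunit of interleukin-27, were the others that fell. Exons of Ebi3 overlap Gm16712 over 23.4% of their length, and those of Tnfsf9 overlap Gm11110 over 8.76%. The values of Ebi3 and Tnfsf9 may therefore hold reads of those genes. Il12b, a subunit of interleukin-12, was at 687 ± 179 CPM with PM and 1025 ± 167 CPM with PH (-0.58 ± 0.19, adjusted p = 0.221, or 3.1e-09 with the block), and Il18 differed by 0.15 ± 0.15. The Il15 difference of -0.37 was smaller in size than the differences of the 5 that fell. These 5 were picked by a threshold that favours large differences, so this order is a description and not a separate result.

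Across the 6 samples Il15 and Il15ra had similar profiles. The root mean square distance between their log2 CPM values, each centred on its own mean, was 0.0950, and Pearson's r was 0.93 over 6 samples that share 3 ids and the split by treatment. By this distance 64 of 8761 other genes with a mean of at least 10 CPM were closer to Il15 than Il15ra was. The 6 closest to Il15 were H2-Q5, a class I histocompatibility gene (distance 0.0261), Vcam1, an adhesion molecule (0.0431), Dennd3, an activator of a Rab GTPase (0.0481), Il2ra (0.0485), the immunoproteasome subunit gene Psmb9 (0.0488) and Uba7, the activating enzyme of the ISG15 modifier (0.0496). Il2ra had r = 0.999 with Il15. Each of these 6 was lower with PM in all 3 ids, and 0 of the 6 passed without the block by edgeR (adjusted p 0.0911 to 0.335, with all 6 at an unadjusted p under 0.05), while 4 did by DESeq2, all but Vcam1 and Uba7. With the block all 6 passed (adjusted p 6.6e-09 to 7.4e-04). Over all tested genes edgeR passed 2.34% without the block and 15.3% with it. The 6 were picked for a profile that holds the difference between treatments, so their calls are not a separate result. H2-Q5 belongs to a family of near-identical genes whose reads could be split or lost in counting, and exons of Psmb9 overlap Tap1 over 15.7% of their length.

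The genes closest to Il15ra were Atrnl1, an attractin-like gene (distance 0.0313), Cd80, a ligand of CD28 (0.0334), Helz2, an interferon-inducible helicase (0.0392), Inpp5b, an inositol phosphatase (0.0411), Sp110, a nuclear body protein (0.0510), and Cdk5r1, an activator of the kinase Cdk5 (0.0523), with r from 0.983 to 0.995 over the 6 samples. Of these 6, 5 fell, against 1.64% of all genes lower, and Cd80 did not pass (-0.40 ± 0.09 SE, adjusted p = 0.0687, or 2.1e-07 with the block). This likeness includes the difference between treatments, so it is a description and not a separate result. Exons of Sp110 overlap G530012D18Rik over 20.4% of their length, so the Sp110 value may hold reads of that gene.

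**Figure D3:**
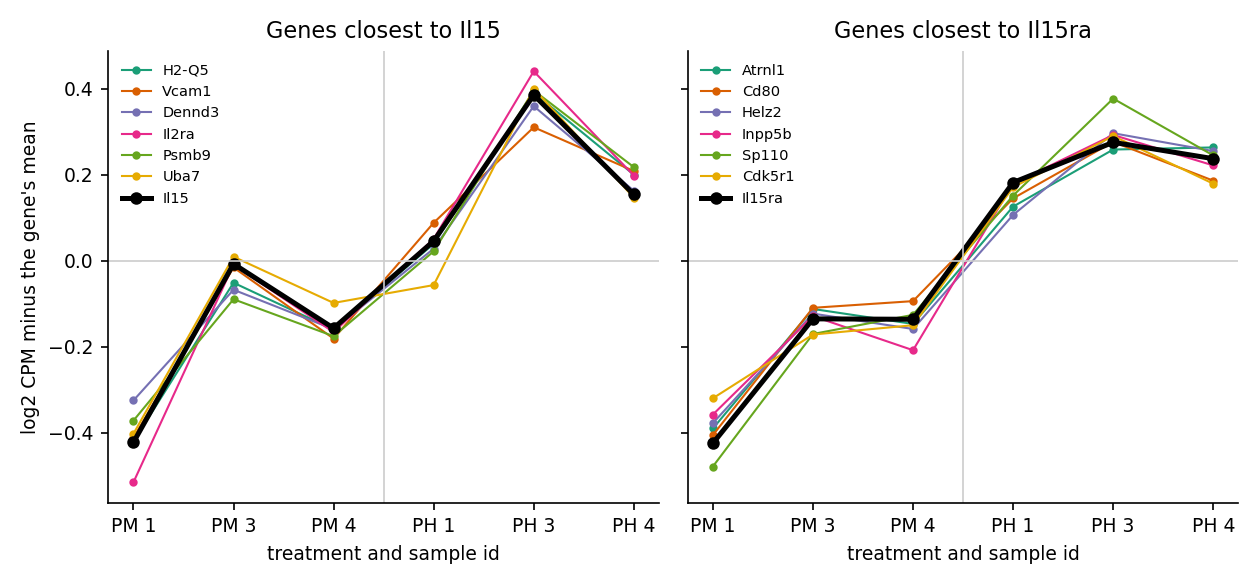
Log2 CPM minus each gene's mean over 6 samples (y axis) for Il15 (left, black) and Il15ra (right, black) with the 6 genes closest to each, in 3 PM and 3 PH samples (x axis); lines only join the points of a gene. Among the Il15 profiles the ids differ within each treatment, with id 1 lowest and id 3 highest for Il15, while for Il15ra the PH samples lie together and PM replicate 1 is lowest.

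Around Il15ra on chromosome 2, genes that were lower with PM stood beside genes that were not. Within 300 kb, 13 other genes had a row and 7 were tested. Of these, 0 passed without the block by edgeR, against 2.34% of all genes (2 at an unadjusted p under 0.05 and 2 by DESeq2, Il2ra and Pfkfb3 in both). Il2ra, which ends 12097 bases upstream of Il15ra on the same strand, had a log2 fold change of -0.45 ± 0.14 (SE). Fbh1, a DNA helicase gene that ends 8258 bases downstream on the other strand, was at 89.2 ± 2.79 CPM with PM and 89.1 ± 4.96 CPM with PH (SD, n = 3 each, log2 fold change 0.00 ± 0.06). Rbm17, a splicing factor gene 102028 bases upstream, differed by -0.03 ± 0.06. Pfkfb3, an activator of glycolysis 151213 bases upstream, was at 495 ± 35.3 CPM with PM and 625 ± 30.1 CPM with PH (-0.34 ± 0.08, adjusted p = 0.0668). With the block Il2ra (adjusted p = 6.6e-09), Pfkfb3 (1.3e-06) and the predicted gene Gm10851 (0.0401) passed, lower with PM, against 8.27% of all genes lower. The genes Fbh1, Rbm17, Ankrd16 and Gm37881 did not pass. Near Il15, 1 of 6 other genes was tested, Inpp4b, a lipid phosphatase gene (-0.18 ± 0.23, adjusted p = 0.810).

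**Figure D4:**
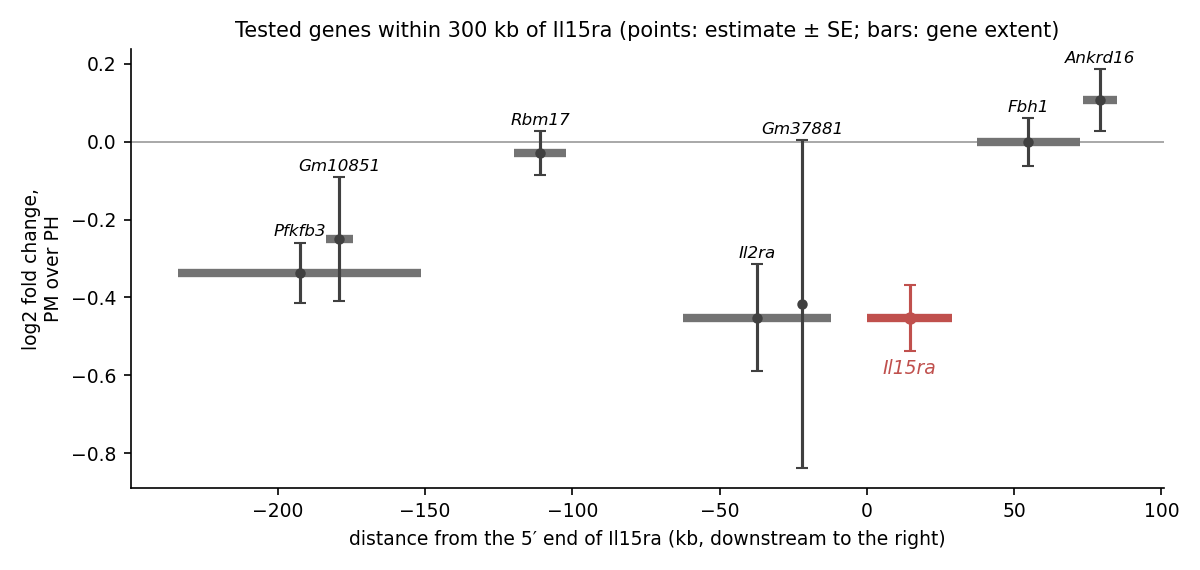
Log2 fold change, PM over PH, ± SE (y axis) of the 7 tested genes within 300 kb of Il15ra against distance from its 5′ end in kb (x axis, horizontal bars show each gene's extent); Il15ra is red. Il15ra and Il2ra are both at -0.45, while Rbm17, Fbh1 and Ankrd16 lie between -0.03 and 0.11.

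Total counts ranged from 11624367 in PH replicate 3 to 40233148 in PH replicate 4, and Il15 and Il15ra had at least 367 and 700 counts in each sample. Defining dendritic cell genes were abundant in both treatments, with Itgax at 161 CPM with PM and 152 CPM with PH and Ccr7 at 3911 CPM with PM and 4049 CPM with PH, and 0 of the 10 tested dendritic cell markers passed by edgeR (2 at an unadjusted p under 0.05, 0 by DESeq2, and 1 higher and 1 lower with the block), while Cd209a had 0 counts. Macrophage genes, in cells also known to make IL-15, were abundant too, with summed levels of 10 markers at 2339 to 3260 CPM in PM samples and 2151 to 2937 CPM in PH samples, and 1 of 8 tested rose (2 by DESeq2, and 2 higher and 1 lower with the block, Cd68 at 0.45 among the higher). The 8 stromal markers summed to 89.8 to 150 CPM in PM samples and 81.2 to 169 CPM in PH samples, with Pdgfrb the 1 of 8 tested that fell (the same 1 by DESeq2 and with the block). The 15 markers of natural killer and CD8 T cells summed to 36.8 to 52.6 CPM in PM samples and 45.7 to 63.4 CPM in PH samples. Gzmb was the 1 of 12 tested that fell (2 by DESeq2 and 2 with the block, Gzma at -1.06 being the other). The markers below the low-count filter were Ncr1, Klrb1c and Prf1, each with a mean under 0.4 CPM in both treatments. The 12 tested had means from 0.640 CPM (Tbx21 with PM) to 16.3 CPM (Gzmb with PH). Cd8a, for example, was at 8.15 CPM with PM and 9.38 CPM with PH. The 8 neutrophil markers summed to 321 to 446 CPM in PM samples and 434 to 531 CPM in PH samples, with Csf3r the 1 of 7 tested that fell (the same 1 by DESeq2). With the block 3 of the 7 neutrophil markers were lower, adding S100a8 and S100a9, and the median log2 fold change of the 7 was -0.31. Beside these counts of markers, edgeR without the block passed 1.64% of all tested genes as lower and 0.702% as higher with PM. With the block the shares were 8.27% lower and 7% higher. Of 8 genes of RNA quality 0 passed by edgeR (1 at an unadjusted p under 0.05, 0 by DESeq2 and 0 with the block). A comparison of treatment means cannot show a trait of 1 library, such as the high Gm42418 of PH replicate 3. AY036118, whose exon lies within that gene, was at 72.4 CPM in PH replicate 3 and 8.26 to 20.9 CPM in the other samples. The part of the cell types above in the Il15 and Il15ra differences was not tested, and in bulk RNA fewer cells of a type and less RNA per cell cannot be told apart.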

How the data were processed

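The series lists 8 libraries, of which 2 are labelled run 2, while its table holds 6 columns of counts, 1 per sample id in each treatment. The columns of PM replicate 1 and PH replicate 3 match 2 libraries each, with no statement in the labels of whether they hold 1 run or a sum. The authors deposited whole-number counts of reads for each gene with no normalization, made from polyadenylated RNA in strand-marking libraries, per the labels' protocols. Trimmomatic, STAR 2.5.3a, featureCounts 1.6.4 and the build GRCm38 were used, per the submitters' processing notes. For the annotation release, the strand setting and multiply matching reads, nothing is given in the sources used here. Exon coordinates and the exon length behind RPKM come from the deposited table.

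Genes were kept by filterByExpr (minimum count 10) and tested in R 4.3.3 with edgeR 4.0.16 after TMM scaling, with glmQLFit (robust) and glmQLFTest, PM over PH, no covariate, Benjamini-Hochberg adjustment over 14382 genes and a threshold of 0.05. SE was derived from the test's F value, and 95% intervals from SE and the test's degrees of freedom. Log2 CPM used a prior count of 2 and the Il15ra to Il15 ratio a pseudocount of 0.5 reads. DESeq2 1.42.0 was an alternative. Over all genes it passed 584 without the block and 1227 with it, beside 337 and 2197 by edgeR. Its counts of list members are to be read beside these totals. The code was tested on simulated counts. Alternatives were the sample id as a block, other scalings and filters, DESeq2 and leaving out samples. All 15 pairs of columns differed by more than sampling noise (chi-square per degree of freedom of 4.63 or more).

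Whether sample ids pair the samples was checked from deviations of log2 CPM from the treatment means. The correlation of PM and PH samples of the same id was 0.44, 0.32 and 0.24 for ids 1, 3 and 4, all positive, a pairing read from the counts and not from the labels. Results without the block are the main ones, and those with the id as a block stand beside them where they change a call. Deviations from a mean of 3 sum to 0, so these correlations are tied to those of different ids.

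The members and lists were chosen with earlier results of these data known. Named genes were Il15 and Il15ra, list members that passed (the direct partners Il2ra, Il2rb, Il2rg, Irf1, Ifnb1, Adam17 and Jak3 whatever their value), the 6 closest profiles for each and tested genes within 300 kb. Other list members were named after their values were seen. Some list members that passed are counted with their lists and are not reported here by name.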

Additional observations from a re-analysis of the deposited data

How the results depend on the processing

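Il15 and Il15ra were lower with PM under all 17 alternatives run for each, and none reversed. For Il15 the log2 fold change passed the threshold with the replicate block (-0.38), with the block and without id 1, 3 or 4 (-0.35, -0.39 and -0.43), with DESeq2 and the block (-0.39) and with no low-count filter (-0.37). It did not pass without any single sample (-0.47 to -0.28). For Il15ra the call was lost with total-count scaling (-0.43) and without any single sample other than PM replicate 1 (values -0.50 to -0.37 over the 6), and it held in the 11 other alternatives. The cause of these changes was not tested, apart from the fewer samples in some. The log2 ratio of Il15ra to Il15 kept its sign in its 9 alternatives (-0.16 to -0.02). Genes past the threshold numbered 337, and 2197 with the block, 2145, 1580 and 1529 with the block and without id 1, 3 or 4, 584 with DESeq2, 1227 with DESeq2 and the block, 846 with no filter, 629 without PH replicate 3 and PM replicate 1 (an alternative chosen after seeing the data) and 142 to 417 without single samples.

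Counts of list members past the threshold moved as follows, with the values of the block, then the block without id 1, 3 or 4. Gamma-chain cytokines went to 1, 1, 1 and 1, to 1 with DESeq2 and the block and to 1 with no filter, and stayed at 0 without single samples. Receptor subunits gave 4, 5, 3 and 3, 4 with DESeq2 and the block, 1 with total-count scaling and 0 to 2 without single samples. The signal relay gave 5, 5, 3 and 4, 4 with DESeq2 and the block, 2 with no filter, 3 without PH replicate 3 and PM replicate 1 and 0 to 3 without single samples. Transcription factors gave 8, 8, 5 and 6, 8 with DESeq2 and the block and 3 to 5 without single samples. The interferon route gave 6, 7, 6 and 6, 4 with DESeq2, 6 with DESeq2 and the block, 5 with no filter and 2 to 4 without single samples. Shedding and transport gave 3, 4, 1 and 1, 1 with DESeq2 and the block and 0 without single samples. Cytokines acting on lymphocytes gave 10, 10, 9 and 10, 9 with DESeq2 and the block, 8 with no filter and 5 to 6 without single samples. Leaving out single samples leaves 2 against 3, so these fits assume that the smaller group varies like the other. Depth limits the genes with a few counts (Il2, Il9, Il21 and Ifnb1).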
